A study of Mus musculus with 16 samples.

Results

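WNT signalling genes were examined in 3 mouse cell types that carry mutations in other genes: the cytoskeletal actin genes Actb and Actg1, and Fermt2, which encodes the integrin activator Kindlin-2. The members were all genes with a Wnt or Fzd symbol followed by a number, plus 29 named receptors, signal transducers, target genes, antagonists and secretion factors. This rule gave 58 genes in the mouse annotation, and 55 of them had a row in at least 1 of the 3 expression tables, which together hold 26653 genes. The stem cell table held 48 members among 23083 genes, the embryonic fibroblast table held 46 among 21615, and the table of cells labelled kidney fibroblasts held 39 among 18288. All of these passed the filter on low values (a mean of at least 1 over the libraries of the table). The ligand genes Wnt1, Wnt2 and Wnt9b had no row in any table.

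The 8 groups had 2 libraries each. Embryonic stem cells (ESCs), which derive from the early embryo, came as wild type, as an Actb knockout (K.O.) and with a full locus deletion of Actb. For Actg1, the same 3 kinds of group (wild type, K.O. and full locus deletion) were made in embryonic fibroblasts (MEFs). Cells labelled kidney fibroblasts (MKFs) were either Kindlin-2 floxed or Kindlin-2 K.O. The study's title concerns genetic compensation set off by decay of mutant mRNA, for which a full locus deletion is the mutant meant to leave no transcript of the gene. The labels give no strain, clone, passage, culture medium or Cre source, and do not say whether the libraries of a group came from separate cultures, so that every p-value below measures the spread between libraries, which may be technical.

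WNT proteins are secreted lipid-modified ligands: Porcn attaches the lipid, Wls carries the ligand to the cell surface, and frizzled receptors with Lrp5 or Lrp6 receive it. Without ligand, a destruction complex built on Axin1 or Axin2 and Apc marks β-catenin (Ctnnb1) for decay; with ligand, β-catenin accumulates and acts with the DNA-binding factors Lef1, Tcf7, Tcf7l1 and Tcf7l2. Axin2, Sp5, Lef1, Nkd1, Notum, Rnf43, Znrf3, T and Cdx1 are known targets of this arm in many tissues, and several of them restrain the pathway in turn. In mouse ESCs the pathway is known for its part in self-renewal and, later, in forming the primitive streak.

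Values are the authors' normalised read counts, 1 value per gene and library. The 3 tables were normalised separately, so every test stayed within a table. Differences are log2 fold changes on the scale log2(value + 1), which understates the change of low genes, with their standard errors (SE). A gene was called, and is said to have risen or fallen, where limma's two-sided moderated test, adjusted over all genes tested by the Benjamini-Hochberg method, gave p below 0.05. Levels of different genes are compared only per kilobase (kb) of exon. The summed values of a library ran from 16022043 to 16529089 in ESCs, from 20305511 to 22094490 in MEFs and from 15565648 to 16324223 in MKFs, and 1 read was worth 0.713 to 1.296 units, as estimated from the spacing of low values. These are bulk libraries, so fewer cells of a type and less RNA per cell cannot be told apart.

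The targeted genes were measured as a check of the labels. Actb read 36364 and 34140 in wild-type ESCs, 23650 and 22707 in the Actb K.O., and 2372 and 2336 in the locus deletion. Actg1 read 5737 and 5672 in wild-type MEFs, 1004 and 1026 in the Actg1 K.O., and 25 and 15 in the locus deletion. Fermt2 read 3078 and 3142 in floxed MKFs and 1251 and 1240 in the K.O. Each targeted gene was lower in both mutant libraries than in both control libraries. The source of the reads left in the locus deletions (2372 and 2336 for Actb, 25 and 15 for Actg1) was not tested. In the ESC table the list of naive and core pluripotency markers summed to 51262 to 60158 in every library with no member called, whereas the fibroblast or feeder list summed to 121 to 226 (5 of its 10 genes had a row). In MEFs the fibroblast list summed to 46318 to 51619 in wild type, 43464 to 44390 in the locus deletion and 166904 to 174938 in the K.O. In MKFs, Dcn, Lum, Col3a1 and Thy1 had no row, the remaining 6 fibroblast markers summed to 402 to 454 in floxed and 30 to 34 in K.O. libraries, and 6 of 6 epithelial markers rose, with sums of 2047 to 2190 in floxed and 20887 to 21465 in K.O. libraries. Of all genes in MKFs, 24.3% were called higher and 24.9% lower in the K.O. The kidney tubule list (5 of 7 with a row, among them Pax2, Pax8 and Cdh16) summed to 5624 to 5720 in floxed and 7026 to 7117 in K.O. libraries. The sum of that list alone does not bear on the fibroblast label, since it was 8062 to 8613 in wild-type MEFs. There 3 of its genes had a row and nearly all of the sum was Aqp1. What Pax2, Pax8 and Cdh16 say about the label of the MKFs was not tested. The low sums of the fibroblast list go against the label of the MKFs.

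The promoters of WNT target genes were searched because 4 of the 4 target members rose in the Actb K.O. ESCs, as given below. RefSeq promoters (250 bases before to 50 after the start, assembly GRCm38.p6) were found for 37 of the 58 members, as 47 entries. The motif searched, on both strands, was CTTTG followed by any pair of the letters A and T, which gives 4 forms of 7 bases that fit the core recognised by LEF1 and the TCF factors. Any of the 4 occurred in 16.9% of all 32851 promoters of that length and in 9 of the 47 member entries (19.1%). The 3 promoters below belong to members that rose in the Actb K.O. and have a single RefSeq start; capitals mark the motifs found, which on the minus strand read as their reverse complement.

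Sp5 (chr2:70474673-70474972, plus strand): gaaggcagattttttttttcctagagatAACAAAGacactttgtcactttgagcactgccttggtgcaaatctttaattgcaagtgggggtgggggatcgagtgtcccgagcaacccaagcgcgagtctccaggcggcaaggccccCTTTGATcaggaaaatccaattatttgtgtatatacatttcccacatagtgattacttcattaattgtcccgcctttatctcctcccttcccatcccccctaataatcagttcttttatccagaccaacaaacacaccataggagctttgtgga

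T (chr17:8434173-8434472, plus strand): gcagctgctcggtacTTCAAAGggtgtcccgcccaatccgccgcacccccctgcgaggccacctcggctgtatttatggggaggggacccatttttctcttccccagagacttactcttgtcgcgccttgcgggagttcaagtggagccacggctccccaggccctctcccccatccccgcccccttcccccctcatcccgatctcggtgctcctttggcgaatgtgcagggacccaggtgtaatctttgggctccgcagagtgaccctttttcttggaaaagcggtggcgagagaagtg

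Axin2 (chr11:108920099-108920398, plus strand): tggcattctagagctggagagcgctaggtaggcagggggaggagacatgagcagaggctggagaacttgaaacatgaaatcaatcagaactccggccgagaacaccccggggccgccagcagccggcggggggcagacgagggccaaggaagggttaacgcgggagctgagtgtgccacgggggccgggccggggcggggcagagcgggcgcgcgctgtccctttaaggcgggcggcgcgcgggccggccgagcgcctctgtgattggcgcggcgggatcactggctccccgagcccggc

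The Sp5 window held 2 matches, CTTTGTT on the minus strand and CTTTGAT on the plus strand, and the T window held 1, CTTTGAA on the minus strand. No match lay in the Axin2 window. Lef1 had 4 entries and Wnt5b had 3, and in each gene 1 entry held a match. Myc, Cdx1 and Porcn, which also rose, are named without a promoter. A match in these letters is a description and says nothing of binding.

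Across the pathway, the 5 contrasts of a mutant with its control differed in how many members were called and in which direction, as the colour map of all 58 genes shows. Among called members, rises outnumbered falls in both Actb mutant ESC groups and falls outnumbered rises in the 3 MEF and MKF contrasts with a control. Over all genes, falls also outnumbered rises in the Actg1 locus deletion (12.6% and 9.46%) and in the MKFs (24.9% and 24.3%). The Actg1 K.O. had more rises (20.6%) than falls (19.1%) over all genes. In the Actb K.O. both stood at 2.44%, and in the Actb locus deletion 5.19% rose and 6% fell.

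**Figure D1:**
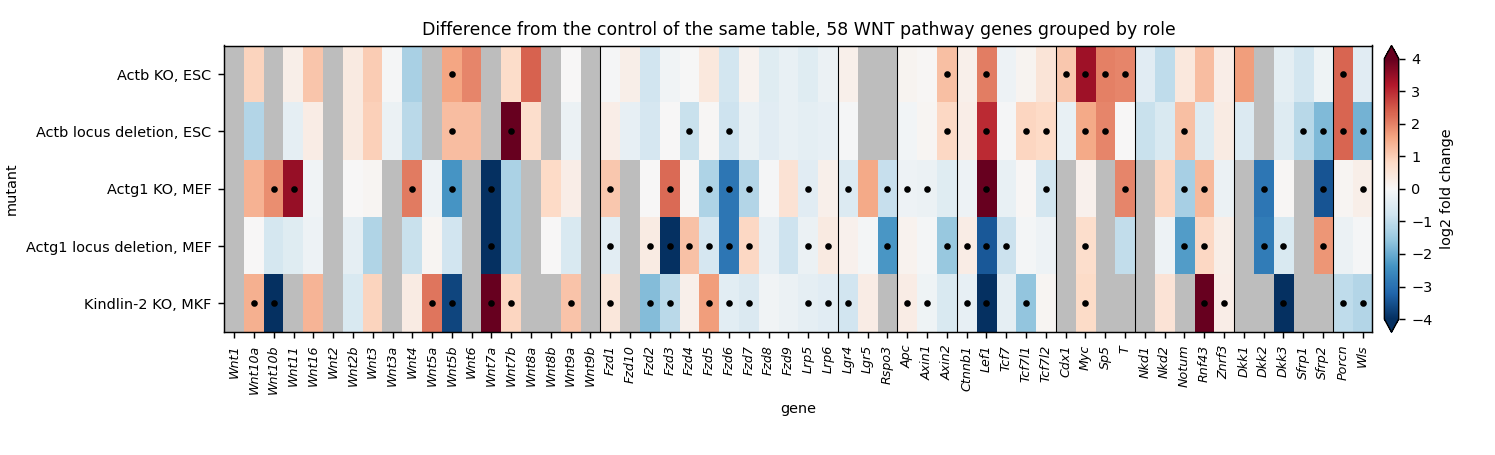
Colour gives the log2 fold change of each of the 58 members (columns, grouped by role and separated by lines) in each mutant against the control of its own table (rows), with red for higher in the mutant, blue for lower, grey for no row in that table, and colours saturating at 4 and -4. Black dots mark the called members: 8 and 15 in the Actb K.O. and locus deletion ESCs, 23 and 21 in the Actg1 K.O. and locus deletion MEFs, and 27 in the Kindlin-2 K.O. MKFs. Of all genes, 4.88%, 11.2%, 39.7%, 22% and 49.2% were called in the same order.

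In ESCs with the Actb K.O., 8 of 48 members rose and none fell, against 2.44% of all genes called higher and 2.44% called lower. The count of 0 falls became 2 with the library number as a block. The 8 were the 4 target members (Myc, Sp5, T and Cdx1), the negative regulator Axin2, the DNA-binding factor Lef1, the ligand Wnt5b and the acyltransferase Porcn. The median log2 fold change was 0.20 over the 48 members and 0.00 over all genes tested. None of the 8 changed sign in the fits that left out any 1 of the 4 libraries. Such a fit keeps 1 library in a group, and calls were lost there over all genes, these 8 included.

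Myc, a growth regulator on chr15:61985391-61990374, read 22 and 16 in wild type and 235 and 184 in the K.O. Both K.O. libraries lay far above both wild-type libraries (log2 fold change 3.40 ± 0.247 SE, adjusted p = 0.000437). Sp5, a zinc finger factor at chr2:70474923-70477729 that is itself turned on by WNT in many settings, went from 21 and 22 to 91 and 87, with no overlap (2.00 ± 0.204, adjusted p = 0.00215). T, the brachyury gene of the primitive streak, at chr17:8434423-8442496, was low in wild type at 8 and 7 and read 32 and 31 in the K.O. (1.94 ± 0.363, adjusted p = 0.024). Cdx1, a posterior homeobox gene, read 124 and 95 in wild type and 234 and 225 in the K.O., the smallest rise of the 4 (1.07 ± 0.182, adjusted p = 0.0166). All 4 genes of the target role were thus higher in both K.O. libraries than in both wild-type libraries. Groups that did not overlap, in either direction, were met in 46.8% of all genes. The roles were set with earlier results of these data known, so the full count of 4 is a description only. Nkd1, Notum, Rnf43 and Znrf3, also known targets, were placed among the feedback inhibitors, and none of them was called.

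Axin2, whose product is a scaffold of the destruction complex and a standard readout of β-catenin activity, read 457 and 377 in wild type and 1052 and 860 in the K.O. (1.19 ± 0.147, adjusted p = 0.00476). Of the other genes of the complex, Axin1 read 1394 and 1312 against 1363 and 1419, and Apc 6486 and 7190 against 7322 and 7540, with neither called. Of the factors, Lef1 (chr3:131110471-131224356) read 19 and 21 in wild type and 75 and 99 in the K.O. (2.06 ± 0.23, adjusted p = 0.00322). Tcf7l2 differed by 0.53 ± 0.172 (628 and 861 against 1035 and 1088, adjusted p = 0.13) and was called only with the replicate number as a block (adjusted p = 0.0266). Ctnnb1, Tcf7 and Tcf7l1 were not called and differed by 0.20, -0.19 and 0.12. Among the 4 transcription factor genes, the wild-type level per kb was 385 for Tcf7l1, 267 for Tcf7, 84.8 for Tcf7l2 and 2.28 for Lef1, and Lef1 was thus the scarcest of them.

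Ligand genes were low in ESCs. The 12 ligands with a row summed to 25 ± 1.98 normalised reads per kb in wild type (mean ± SD of 2 libraries) and to 51.8 ± 3.89 in the K.O., of which Wnt5b supplied 22.1% and 33.4%. Wnt5b, a ligand mostly linked to β-catenin-independent signalling, read 13 and 16 in wild type and 49 and 42 in the K.O. (1.59 ± 0.278, adjusted p = 0.0187). No other ligand was called; Wnt6 read 2 and 3 against 9 and 17, and Wnt8a 5 and 0 against 9 and 15, with adjusted p of 0.121 and 0.163. In the 6 ESC libraries Wnt2b read between 18 and 33, and Wnt3, Wnt3a, Wnt4, Wnt9a, Wnt10a, Wnt11 and Wnt16 between 0 and 13. Porcn read 27 and 10 in wild type and 86 and 89 in the K.O. (2.33 ± 0.404, adjusted p = 0.0181), and its wild-type libraries differed from each other by a larger ratio than those of the other 7 genes that rose. Wls, the ligand carrier, was not called (109 and 152 against 78 and 112).

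None of the 12 receptor genes was called in the K.O. at the threshold. Fzd5 was the most abundant frizzled per kb in every ESC library, with 269 per kb in wild type and 359 in the K.O., followed by Fzd10 at 145 and 171 and Fzd7 at 88.2 and 97.2. Over the 6 libraries Fzd3 read 178 to 255, Fzd2 46 to 88, Fzd8 36 to 67, Fzd9 20 to 30 and Fzd1 11 to 19. Fzd5 read 2017 and 1706 against 2580 and 2386 (0.42 ± 0.112, adjusted p = 0.0761), and the co-receptor Lrp5 read 871 and 782 against 550 and 634 (-0.48 ± 0.122, adjusted p = 0.0655). With the replicate number as a block both were called, at adjusted p of 0.0359 and 0.0406. The secreted antagonist Sfrp1 was the highest of the 4 antagonists, at 3606 and 5086 in wild type and 2289 and 2971 in the K.O. (-0.72 ± 0.187, adjusted p = 0.0715; 0.00323 with the block). Dkk1, which blocks Lrp6, read 5 and 8 against 23 and 22 (1.68 ± 0.437, adjusted p = 0.0709). The 5 feedback inhibitors had no call: Notum, Znrf3 and Rnf43 differed by 0.41, 0.26 and 1.23 and Nkd1 and Nkd2 by -0.45 and -1.03.

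In ESCs lacking the Actb locus, 10 of 48 members rose and 5 fell, against 5.19% of all genes called higher and 6% called lower. The risers were the factors Lef1, Tcf7l1 and Tcf7l2, the regulators Axin2 and Notum, the ligands Wnt5b and Wnt7b, Porcn, and the targets Myc and Sp5; Wls, Fzd4, Fzd6, Sfrp1 and Sfrp2 fell. The median over the 48 members was -0.08, and 0.01 over all genes. In fits that left out 1 library, most calls were lost over all genes as well as among these members. No called member changed sign in them.

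Lef1 read 146 and 185 in the locus deletion, above both wild-type libraries at 19 and 21 (2.98 ± 0.23, adjusted p = 0.000327). Tcf7l1, whose product mainly represses targets in ESCs, read 2270 and 3241 against 1619 and 1406 (0.85 ± 0.163, adjusted p = 0.0143), and Tcf7l2 read 1123 and 1435 against 628 and 861 (0.79 ± 0.172, adjusted p = 0.0232). These 3 factor genes were higher in both mutant libraries, while Tcf7 at 656 and 692 lay within its wild-type range of 636 to 765. Sp5 reached 90 and 83 (1.96 ± 0.204), Myc 50 and 61 (1.51 ± 0.247) and Axin2 703 and 777 (0.83 ± 0.147), each above both wild-type values. T, at 7 and 8, and Cdx1, at 83 and 93, were not called (0.00 ± 0.363 and -0.30 ± 0.182). Notum, which encodes an extracellular lipase that strips the lipid from WNT ligands, rose from 110 and 98 to 273 and 211 (1.20 ± 0.211, adjusted p = 0.00977).

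Wnt7b had the largest change of any member in these cells: it read 2 and 4 in wild type, 5 and 6 in the Actb K.O. and 71 and 53 in the locus deletion (4.01 ± 0.435, adjusted p = 0.00136). In the locus deletion it and Wnt5b (38 and 32; 1.22 ± 0.278) stood at 12.7 and 13.2 per kb, out of a ligand sum of 47.4 ± 3.82 per kb. Porcn read 103 and 75 (2.34 ± 0.404), whereas Wls fell to 42 and 28 from 109 and 152 (-1.88 ± 0.285, adjusted p = 0.00552). Both libraries of the locus deletion lay below both wild-type libraries for Wls and above them for Porcn; groups did not overlap in 49.7% of all genes here.

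Of the receptors, Fzd4 fell to 47 and 44 from 85 and 85 (-0.89 ± 0.187) and Fzd6 to 64 and 65 from 99 and 135 (-0.83 ± 0.207), both minor frizzleds per kb (6.77 and 13.4 in the locus deletion beside 280 for Fzd5). Lrp5 and Lrp6 differed by -0.40 and -0.33 and were not called, but passed with the block (adjusted p = 0.0497 and 0.0405; 0.0727 and 0.0632 without it). The antagonist genes Sfrp1 and Sfrp2, whose products bind WNT ligands outside the cell, both fell. Sfrp1 read 1827 and 2183 (-1.10 ± 0.187, adjusted p = 0.00861), and Sfrp2 read 14 and 24 against 74 and 57 in wild type (-1.77 ± 0.302, adjusted p = 0.00873). Sfrp1 and Nkd1 lie on chromosome 8, whose 615 genes with a mean of at least 50 had a median log2 fold change of -0.40 in the locus deletion and -0.35 in the K.O., while the medians of the other 18 autosomes ran from -0.05 to 0.10 and from 0.00 to 0.08. The part of this shift in the Sfrp1 values was not tested.

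**Figure D2:**
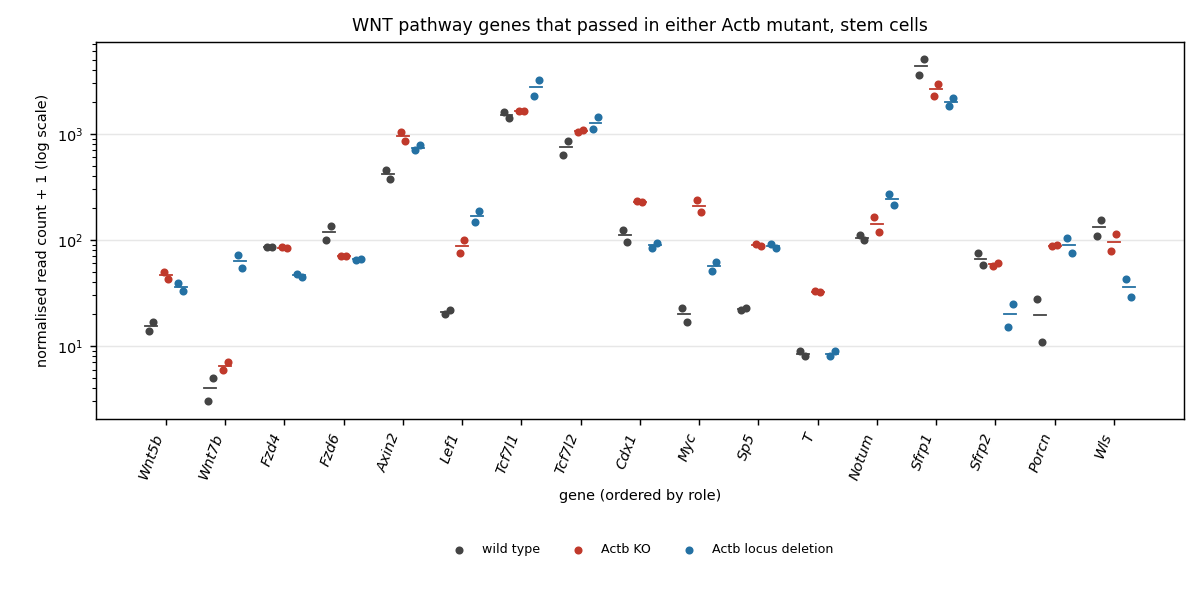
Each point is 1 library and each bar the group mean of the normalised read count plus 1 (log axis) in wild-type, Actb K.O. and Actb locus deletion ESCs, for the members called in either mutant, ordered by role. Myc, T and Cdx1 stand highest in the K.O., Wnt7b and Lef1 highest in the locus deletion, and Wls and Sfrp2 lowest in the locus deletion.

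The Actb mutants were also compared directly, since the contrasts with wild type share the wild-type libraries. In the K.O. 8 members were higher and 2 lower than in the locus deletion, against 2.56% of all genes called higher and 2.32% called lower; the libraries of the 2 mutants did not overlap in 46.4% of all genes. The targets Myc (1.89 ± 0.247, adjusted p = 0.00561), T (1.94 ± 0.363, adjusted p = 0.022) and Cdx1 (1.37 ± 0.182, adjusted p = 0.00582) were higher in the K.O., as were Wls (1.42), Fzd10 (0.56), Fzd4 (0.86), Sfrp2 (1.61) and Dkk1, which read 23 and 22 against 4 and 4 (2.23 ± 0.437, adjusted p = 0.0257). Wnt7b (-3.27) and Tcf7l1 (-0.72) were lower. Sp5, Porcn and Axin2 were not called, with differences of 0.04 ± 0.204, -0.01 ± 0.404 and 0.36 ± 0.147. With the block, Lef1 (-0.92, adjusted p = 0.0251) and Notum (-0.79, 0.0167) were also lower and Rnf43 (1.74, 0.0308) and Sfrp1 (0.38, 0.0428) higher. Leaving out any 1 of the 4 libraries lost calls over all genes, those of the members included, and no called member changed sign. Of the 93 other pathway genes tested, described next, 1 was higher in the K.O. (Msx2, 84 and 79 against 19 and 21) and 3 were lower (Gpc3 at -1.51, Tle1 at -0.54 and Btrc at -0.47), which is 4.3% called against 4.88% of all genes.

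Other pathway genes, 103 in 5 lists that overlap no member, were read beside these. Of the 93 with a value in ESCs, 7 rose and 3 fell in the K.O., and 13 rose and 6 fell in the locus deletion. That is 10.8% and 20.4% of them called, against 4.88% and 11.2% of all genes. With the filter at a mean of at least 10, 649 of 16391 genes were called higher and 660 lower in the K.O. In the locus deletion 1388 were higher and 1541 lower with that filter, which was not applied to the pathway lists. Among the 20 further WNT targets tested, 2 rose and 0 fell in the K.O. and 3 rose and 1 fell in the locus deletion, at medians of 0.30 and 0.10. Bmp4, a BMP ligand, read 32 and 29 in wild type, 179 and 220 in the K.O. (2.66 ± 0.207) and 112 and 145 in the locus deletion (2.03 ± 0.207). Cdx2, a posterior and trophoblast regulator, read 1 and 3, 16 and 31, and 13 and 13 in the same order, called in both. Sfrp4, another secreted frizzled-related protein, fell from 342 and 444 to 87 and 95 (-2.09) and 117 and 111 (-1.76). The heparan sulphate proteoglycan gene Gpc4 rose from 824 and 925 to 2116 and 2124 (1.28) and 2119 and 1623 (1.09), and Apcdd1, which encodes a membrane inhibitor of WNT, from 104 and 98 to 204 and 204 (1.01) and 159 and 187 (0.77). Id2, a BMP and WNT target, was called in the locus deletion (46 and 84 in wild type, 156 and 132) and not in the K.O. (157 and 127, adjusted p = 0.0538, or 0.0339 with the library number as a block).

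Markers of other cell types were uneven between the same groups. The 6 epithelial markers summed to 12794 to 13330 in wild type, 9891 to 9952 in the K.O., where 2 rose and 1 fell, and 7845 to 8030 in the locus deletion, where 4 fell and 0 rose. The mesoderm and primitive streak list (7 of 8 genes with a row, T not among them) summed to 193 to 198 in wild type, 280 to 315 in the K.O. and 158 to 162 in the locus deletion. Most of these reads came from Eomes, which read 130 and 138 in wild type, rose in the K.O. (230 and 231) and fell in the locus deletion (59 and 64). No other gene of the list was called in the K.O., and Evx1 rose in the locus deletion (0 and 0 to 18 and 15). Other lists moved as well. From wild type to the K.O., the macrophage and blood list went from 970 to 1103 up to 1942 to 2038. The endothelial list went from 1991 to 2057 down to 1438 to 1502, and the trophoblast list from 1615 to 1755 down to 1104 to 1220. Primitive endoderm markers summed to 112 to 113 and then 176 to 203. Of all genes, 4.88% were called in the K.O. and 11.2% in the locus deletion. The part of these cells or genes in the WNT values was not tested.

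In MEFs the levels were arranged otherwise. Wnt5a, a ligand of β-catenin-independent signalling, made up 67.3% of the ligand sum per kb in wild type, with 934 and 842 normalised reads, and Fzd7 made up 53.2% of the frizzled sum. In the Actg1 K.O., 9 of 46 members rose and 14 fell, against 20.6% of all genes called higher and 19.1% called lower. The risers were Lef1, Fzd1, Fzd3, Wnt4, Wnt10b, Wnt11, T, Rnf43 and Wls. Those that fell were Wnt5b, Wnt7a, Fzd5, Fzd6, Fzd7, Lrp5, Lgr4, Rspo3, Apc, Axin1, Tcf7l2, Notum, Dkk2 and Sfrp2. The median was 0.02 over members and 0.06 over all genes. Part of the 23 calls did not hold when 1 library was left out, and calls were lost over all genes in the same fits. No called member changed sign in them.

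Among ligands, Wnt10b, which acts through β-catenin and holds back fat cell formation, read 70 and 47 in wild type and 199 and 221 in the K.O. (1.85 ± 0.272, adjusted p = 0.0012). Wnt4 rose from 4 and 10 to 26 and 35 (2.07 ± 0.486, adjusted p = 0.0113) and Wnt11 from 1 and 1 to 22 and 21. For Wnt11 the ratio was 22.5 with a 95% counting interval of 5.86 to 191. Wnt7a (chr6:91363981-91411363) went the other way, from 47 and 43 to 1 and 0, a ratio of 91.1 in favour of wild type (counting interval 16 to 3640). Wnt5b read 7 and 9 against 0 and 2 (ratio 7.84, interval 1.84 to 70.3). Wnt5a was not called, at 755 and 778 (-0.21 ± 0.0739, adjusted p = 0.056), and its share of the ligand sum was 51%. These intervals cover counting error only. Wnt2b read 27 to 42 over the 6 MEF libraries, Wnt16 6 to 22, Wnt9a 8 to 17 and Wnt7b 2 to 13, and Wnt3, Wnt8b and Wnt10a stayed at 6 or below, with no call in either mutant against wild type.

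Frizzled genes changed in both directions. Fzd7 fell from 2624 and 2315 to 1142 and 1051 (-1.17 ± 0.0808, adjusted p = 3.04e-05) and Fzd5 from 761 and 684 to 314 and 303 (-1.22 ± 0.0845, adjusted p = 3.04e-05). Fzd3 rose from 201 and 189 to 944 and 935 (2.26 ± 0.182, adjusted p = 6.25e-05), and Fzd1 from 435 and 431 to 908 and 908 (1.07 ± 0.0734, adjusted p = 2.97e-05). The 2 libraries of each group lay close together and the groups did not overlap for any of these 4, a separation met by 68.5% of all genes in this comparison. The per-kb level of Fzd7 was 545 in wild type and 242 in the K.O., and that of Fzd1 was 103 and 216, so that the share of the frizzled sum held by Fzd7 was 29.1% in the K.O. Fzd6 was barely detected (10 and 14 against 2 and 0; ratio 11.8, interval 2.92 to 103). Fzd2 and Fzd4 were not called, at 0.01 ± 0.0689 and 0.04 ± 0.116, nor were Fzd8 (156 to 236 over the 6 libraries) and Fzd9 (4 to 14). The co-receptor Lrp5 fell by 0.45 on the log2 scale, while Lrp6 (0.20 ± 0.0701, adjusted p = 0.053) was not called.

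Lef1 showed the largest rise, from 9 and 10 in wild type to 293 and 302 in the K.O. (4.83 ± 0.329, adjusted p = 2.83e-05). Tcf7l2 fell from 2540 and 2332 to 1368 and 1551 (-0.74 ± 0.111), whereas Ctnnb1, Tcf7 and Tcf7l1 were not called, at -0.19, -0.29 and 0.04. Axin1 and Apc fell by 0.24 and 0.20 on the log2 scale. Rspo3, a secreted amplifier of WNT signals, read 583 and 677 in wild type and 327 and 332 in the K.O. (-0.93 ± 0.104), and its receptor Lgr4 fell by 0.54. Rnf43, an E3 ligase that removes frizzleds from the surface, rose from 76 and 72 to 187 and 181 (1.30 ± 0.169), while Notum fell from 25 and 23 to 8 and 10 (-1.33 ± 0.424). Notum (chr11:120653788-120661175) lies 305 kb from Actg1. The antagonists Dkk2, from 151 and 143 to 17 and 21 (-2.89 ± 0.277), and Sfrp2, from 74 and 94 to 5 and 9 (-3.45 ± 0.276), both fell by several fold, with no overlap between groups. Wls rose by 0.24 ± 0.0572, the smallest change among the risers. The target T rose from 1 and 1 to 5 and 9, a ratio of 7.66 (counting interval 1.78 to 69), and Myc was not called (1591 and 1537 against 1708 and 1797). Without a call against wild type in either mutant, Znrf3 read 465 to 686 over the 6 libraries, Tcf7l1 345 to 405, Porcn 17 to 27, Nkd2 3 to 20 and Lgr5 1 to 11.

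Some called members lie on chromosomes whose genes as a whole differed between the groups. In the Actg1 K.O. the median over genes with a mean of at least 50 ran from -0.85 on chromosome 16 to 0.24 on chromosome 8. Lgr4, at -0.54, lies on chromosome 2 with a median of -0.53; Axin1, at -0.24, lies on chromosome 17 with -0.29; Apc, at -0.20, on chromosome 18 with -0.24; and Lrp5, at -0.45, on chromosome 19 with -0.33. Tcf7l2, on the same chromosome 19, was 0.41 below that median. Of the risers, Wls, at 0.24, lies on chromosome 3 with a median of 0.18. The part of these shifts in the calls was not tested.

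In MEFs lacking the Actg1 locus, 8 of 46 members rose and 13 fell, against 9.46% of all genes called higher and 12.6% called lower; groups did not overlap in 54% of all genes. The risers were the receptors Fzd2, Fzd4, Fzd7 and Lrp6, with Ctnnb1, Myc, Rnf43 and Sfrp2, and those that fell were Fzd1, Fzd3, Fzd5, Fzd6, Lrp5, Rspo3, Lef1, Tcf7, Axin2, Notum, Wnt7a, Dkk2 and Dkk3. The median was -0.29 over members and 0.00 over all genes. Part of the 21 calls were lost when 1 library was left out, as were calls over all genes, and no called member changed sign. Of 11 receptor genes, 9 were called.

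Fzd3 (chr14:65192449-65262463) read 201 and 189 in wild type and 0 and 0 in the locus deletion, which is at least 65-fold lower against 3 reads per library. Within 500 kb of Fzd3, 4 of 9 other genes with a mean of at least 10 fell, 0 rose, and the median was -0.36, while the median of chromosome 14 was -0.21. Fzd7 rose to 4241 and 4548 (0.83 ± 0.0808, adjusted p = 0.000423) and Fzd4 from 206 and 187 to 430 and 460 (1.18 ± 0.116, adjusted p = 0.000458). Fzd1 fell to 314 and 328 (-0.43 ± 0.0734) and Fzd5 to 460 and 451 (-0.66 ± 0.0845). Fzd6, at 0 and 2, had a ratio of 11.7 in favour of wild type (counting interval 2.91 to 102). Per kb, Fzd7 stood at 970 and made up 67.2% of a frizzled sum of 1440 ± 49.5, beside 1020 ± 68.6 in wild type and 832 ± 8.49 in the K.O. Fzd2 and Lrp6 rose by 0.34 and 0.35, and Lrp5 fell by 0.23 on the log2 scale.

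**Figure D3:**
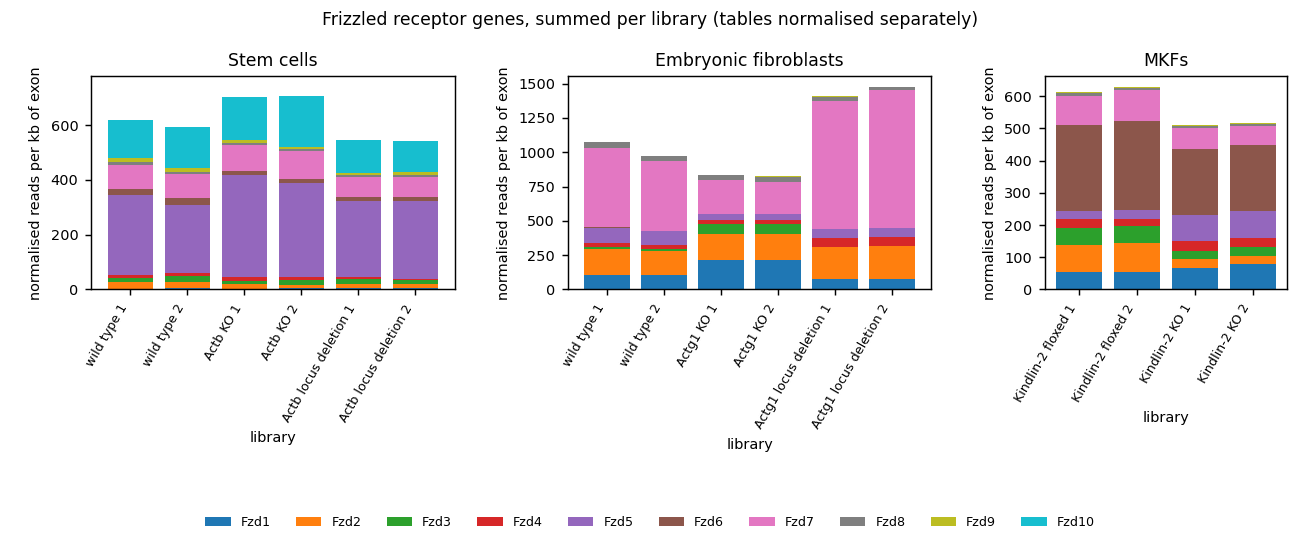
Stacked bars give the normalised reads per kb of exon of each frizzled gene in every library, in 3 panels because the tables were normalised separately. Fzd5 is the widest band in stem cells, Fzd7 in embryonic fibroblasts, where its share ran from 29.1% in the Actg1 K.O. to 67.2% in the locus deletion, and Fzd6 in MKFs.

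Lef1 read 0 and 0 in the locus deletion, at least 3.17-fold below wild type. Wnt7a also read 0 and 0, at least 15-fold lower. Rspo3 fell further than in the K.O., to 122 and 128 (-2.32 ± 0.104, adjusted p = 1.75e-05), and the 2 mutants differed directly (1.39 ± 0.104 in favour of the K.O., adjusted p = 3.08e-05). Axin2 fell from 33 and 34 to 8 and 15 (-1.52 ± 0.357) and Tcf7 from 251 and 216 to 136 and 119 (-0.87 ± 0.135), while Ctnnb1 rose by 0.31 ± 0.0796. Myc rose from 1591 and 1537 to 2573 and 2466 (0.69 ± 0.0604, adjusted p = 0.000278). Rnf43 reached 113 and 153 (0.82 ± 0.169) and Notum fell to 3 and 6 (-2.24 ± 0.424). Among 41 other genes within 500 kb of Notum, Actg1 included, 2 rose and 3 fell. Sfrp2 rose to 287 and 278 (1.75 ± 0.276), Dkk2 fell to 16 and 25 (-2.81 ± 0.277), and Dkk3 fell from 258 and 275 to 159 and 189 (-0.62 ± 0.118).

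**Figure D4:**
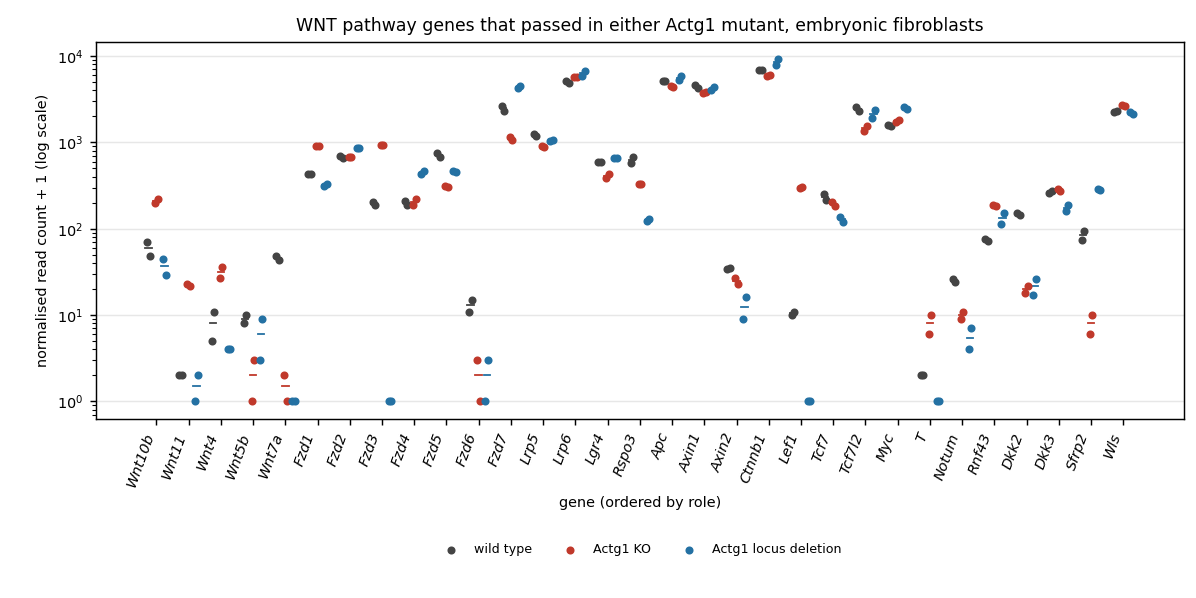
Each point is 1 library and each bar the group mean of the normalised read count plus 1 (log axis) in wild-type, Actg1 K.O. and Actg1 locus deletion MEFs, for the members called in either mutant, ordered by role. Lef1 and Fzd3 lie above wild type in the K.O. and at 0 reads in the locus deletion, Fzd7 and Sfrp2 lie below wild type in the K.O. and above it in the locus deletion, and Wnt7a and Dkk2 lie below it in both.

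Set directly against the locus deletion, the Actg1 K.O. had 13 members higher and 13 lower, against 24.5% of all genes called higher and 20.7% called lower, with no overlap of the libraries in 69.4% of all genes. Leaving out 1 library lost part of these calls, and part of those over all genes. The sharpest contrasts were Fzd3, at least 313-fold higher in the K.O., and Lef1, at least 99.2-fold higher. Wnt10b (2.54 ± 0.272), Wnt4 (2.96 ± 0.486), Fzd1 (908 and 908 against 314 and 328) and T (5 and 9 against 0 and 0) were also higher, together with Wnt11, Rspo3, Axin2, Tcf7, Fzd9, Wls and Dkk3. Lower in the K.O. were Sfrp2 (-5.19 ± 0.276), Fzd7 (1142 and 1051 against 4241 and 4548, adjusted p = 2.11e-06) and Fzd4 (-1.14 ± 0.116), with Fzd2, Fzd5, Lrp5, Lgr4, Ctnnb1, Tcf7l2, Apc, Wnt5a, Znrf3 and Myc between -0.70 and -0.23. Wnt7a and Dkk2 were not called, at 0.50 ± 0.531 and -0.08 ± 0.277. Of the lower members, Lgr4 (-0.70) lies on chromosome 2, whose median was -0.63 in this contrast, and Apc (-0.33) on chromosome 18 with -0.42. Lrp5 (-0.23) and Tcf7l2 (-0.55) lie on chromosome 19 with -0.41, and Ctnnb1 (-0.51) on chromosome 9 with -0.29. For Fzd2, Fzd5, Wnt5a, Znrf3 and Myc the chromosome medians lay between -0.04 and 0.16. The part of these shifts in the calls was not tested.

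Of 85 other pathway genes tested in MEFs, 24 rose and 25 fell in the K.O., and 11 rose and 22 fell in the locus deletion. That is 57.6% and 38.8% of them called, against 39.7% and 22% of all genes. With the filter at a mean of at least 10, 3874 of 15498 genes were called higher and 4200 lower in the K.O. In the locus deletion 2331 were higher and 2908 lower with that filter, which was not applied to the pathway lists. Pygo1, a β-catenin co-activator, read 2 and 2 in wild type, 101 and 129 in the K.O. and 2 and 1 in the locus deletion. Daam2, a formin that acts downstream of Dishevelled, read 343 and 360, 1593 and 1650, and 110 and 129 in that order. The target gene Wisp2 showed the same order, at 99 and 96, 652 and 663, and 34 and 50. Dact1, a Dishevelled-binding regulator, read 2 and 0 in wild type, 79 and 72 in the K.O. and 1 and 2 in the locus deletion. The receptor gene Tnfrsf19, itself a target, was listed at 0 in wild type and read 8 and 7 in the K.O., at least 2.55-fold higher, and Tbx3 went from 1 and 0 to 16 and 18. Cyclin D1 (Ccnd1) fell in both mutants, from 5911 and 5783 to 1817 and 1925 in the K.O. and 4048 and 4291 in the locus deletion, as did Rspo2, from 1937 and 1969 to 467 and 466 and to 1149 and 1403. In the locus deletion the largest falls beside Daam2 and Wisp2 were those of Bmp4 (1207 and 1243 to 398 and 400), Lgr6 (946 and 783 to 286 and 321) and Trabd2b (154 and 131 to 49 and 55).

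Genes of other programmes differed between the same libraries. Dcn read 17 and 14 in wild type, 8037 and 7653 in the K.O. and 12 and 5 in the locus deletion, and Sox2 read 44 and 32, 1326 and 1306, and 0 and 0. Both were picked after their values were seen. Of the 10 genes of the fibroblast list, 6 rose and 2 fell in the K.O. Of the 4 pluripotency genes with a row, 3 rose and 1 fell there, beside 39.7% of all genes called. The pluripotency list summed to 1827 to 1925 in wild type and 2277 to 2284 in the K.O. The Actg1 genotype and these differences cannot be told apart in this design, since the labels name no second line of a genotype.

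In Kindlin-2 K.O. MKFs, 11 of 39 members rose and 16 fell, against 24.3% of all genes called higher and 24.9% called lower, and groups did not overlap in 73.3% of all genes. The median was -0.16 over members and 0.01 over all genes. The risers were 5 ligands (Wnt5a, Wnt7a, Wnt7b, Wnt9a and Wnt10a), the receptors Fzd1 and Fzd5, the ligases Rnf43 and Znrf3, Apc and Myc. Those that fell were Wnt5b, Wnt10b, Fzd2, Fzd3, Fzd6, Fzd7, Lrp5, Lrp6, Lgr4, Ctnnb1, Lef1, Tcf7l1, Axin1, Porcn, Wls and Dkk3. Part of the 27 calls did not hold in the fits that left out 1 library, in which calls over all genes were lost too. No called member changed sign there. The marker sums given at the start, with Cdh1 at 10 and 16 in floxed and 1399 and 1531 in K.O. libraries, moved with this contrast; their part in the WNT values was not tested.

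Ligand genes differed in kind as well as in amount. The sum over ligands was 327 ± 9.9 per kb in floxed and 643 ± 29.7 in K.O. libraries (mean ± SD, n = 2), and the highest ligand per kb was Wnt7b in the floxed cells (36% of the sum) and Wnt10a in the K.O. (44.4%). Wnt10a, an epithelial ligand known from skin and teeth, read 269 and 253 in floxed and 683 and 725 in K.O. libraries (1.43 ± 0.0671, adjusted p = 0.000181). Wnt7b, known from the collecting duct of the kidney, went from 571 and 580 to 1010 and 1083 (0.86 ± 0.0558). Its relative Wnt7a read 0 and 2 against 181 and 210, a ratio of 191 (counting interval 52.5 to 1580). Wnt5a rose from 55 and 47 to 226 and 230 (2.14 ± 0.121, adjusted p = 0.000279) and Wnt9a from 57 and 56 to 133 and 121 (1.15 ± 0.118). Wnt10b (chr15:98770712-98778150) was nearly lost, from 211 and 202 to 1 and 1 (ratio 215, interval 59.1 to 1780), and Wnt5b went from 26 and 17 to 2 and 0 (ratio 21.9, interval 5.69 to 187). Within 500 kb of Wnt10b, 11 of 24 other genes with a mean of at least 10 fell and 3 rose, at a median of -0.15. Those that fell included Dhh (-5.46) and Dnajc22 (-6.63), and those that rose included Fkbp11 (2.41). The part of this region in the Wnt10b values was not tested. Wnt4, known from kidney tubule formation, was not called (31 and 22 against 31 and 36), and neither were Wnt2b (7 to 18 over the 4 libraries), Wnt16 (4 to 20) and Wnt3 (0 to 6).

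The secretion genes fell while these ligands rose: Wls from 2663 and 2635 to 1162 and 1214 (-1.16 ± 0.0423, adjusted p = 0.000109) and Porcn from 27 and 22 to 12 and 11 (-1.02 ± 0.247, adjusted p = 0.0238). Of 11 receptor genes, 2 rose and 6 fell. Fzd5 rose from 181 and 179 to 564 and 577 (1.66 ± 0.0615, adjusted p = 0.00011) and Fzd1 from 227 and 222 to 282 and 335 (0.45 ± 0.104). Fzd2 fell from 302 and 330 to 98 and 92 (-1.72 ± 0.0929), Fzd3 from 696 and 690 to 331 and 325 (-1.08 ± 0.053) and Fzd7 from 411 and 438 to 294 and 276 (-0.57 ± 0.0717). Fzd6 stayed the highest frizzled per kb, at 272 in floxed and 205 in K.O. libraries, although it fell by 0.41 on the log2 scale, beside a median of -0.30 for its chromosome 15. Lrp6 (-0.46, chromosome 6 median -0.26) and Lrp5 (-0.35) fell, as did Lgr4 (-0.76 ± 0.0559). Fzd4 read 156 to 201 over the 4 libraries, Fzd8 33 to 48, Fzd9 4 to 10 and Lgr5 2 to 5, with no call.

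Dkk3, the only member of the secreted antagonists with a row in this table, had the largest change of all: 1371 and 1393 in floxed and 3 and 1 in K.O. libraries (-8.93 ± 0.346, adjusted p = 0.000121). Dkk3 lies at chr7:112116017-112159057 and its product, unlike other Dickkopf proteins, is not an established Lrp6 blocker. Within 500 kb of it, 4 other genes had a mean of at least 10, of which 3 fell and 1 rose. Lef1 fell from 251 and 249 to 7 and 6 (-5.07 ± 0.164, adjusted p = 8.07e-05) and Tcf7l1 from 206 and 214 to 72 and 68 (-1.57 ± 0.0972). Tcf7l2, the most abundant of the 4 factors per kb in both groups, was not called (156 and 166 per kb), nor was Tcf7 (-0.37 ± 0.119, adjusted p = 0.0533). Ctnnb1 fell from 3412 and 3484 to 2831 and 2682 (-0.32 ± 0.043) on chromosome 9, whose median was -0.46, and Axin1 by 0.16. Apc rose by 0.30 ± 0.0371 on chromosome 18, whose median was 0.26. Axin2 was low and was not called (27 and 18 against 11 and 18). Rnf43 read 0 and 0 in floxed and 35 and 45 in K.O. libraries, at least 13-fold higher, and the related ligase gene Znrf3 rose by 0.27 ± 0.0603, while Nkd2 (6 to 13) was not called. Myc rose from 883 and 913 to 1567 and 1525 (0.78 ± 0.0449, adjusted p = 0.00029).

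**Figure D5:**
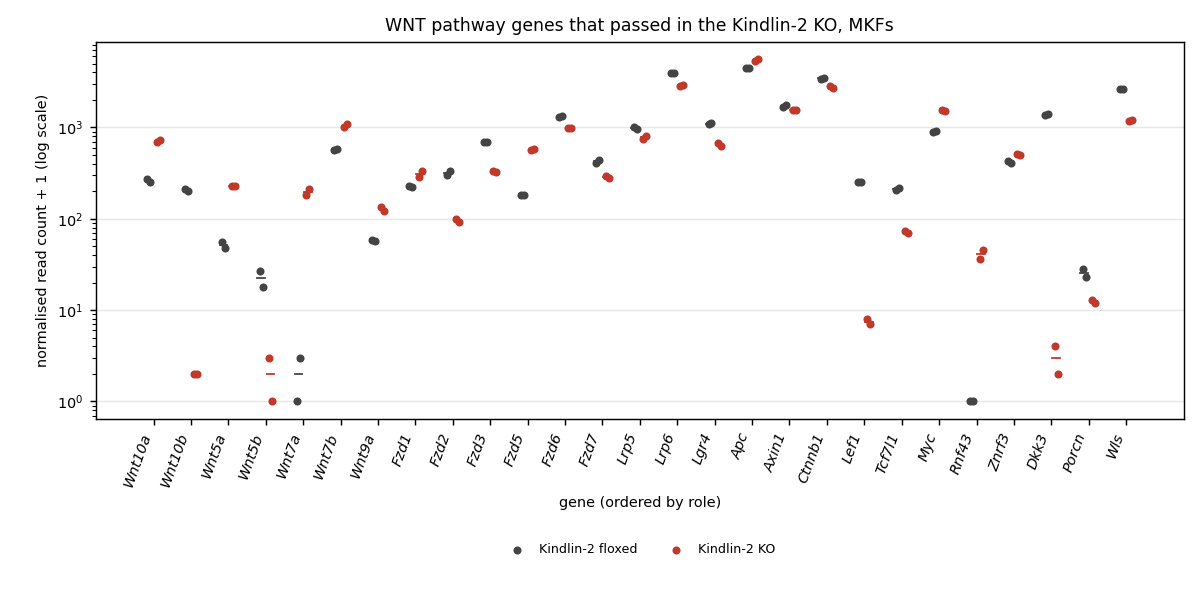
Each point is 1 library and each bar the group mean of the normalised read count plus 1 (log axis) in Kindlin-2 floxed and Kindlin-2 K.O. MKFs, for the 27 called members, ordered by role. Wnt7a and Rnf43 go from 0 to 2 reads in floxed libraries to 35 or more in the K.O., and Wnt10b, Lef1 and Dkk3 go from over 200 to 7 or fewer.

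Of 80 other pathway genes tested in MKFs, 23 rose and 38 fell, which is 76.2% called against 49.2% of all genes (24.3% higher and 24.9% lower). The share of all genes depends on the filter for low values. With the filter at a mean of at least 10, 4262 of 14176 genes were called higher and 4481 lower. The pathway lists were not filtered in that way. Of the 16 targets among the 80 pathway genes, 8 rose and 4 fell. Ccnd1 rose from 779 and 801 to 4345 and 4503 (2.48 ± 0.0421) and Cdx2 from 0 and 3 to 37 and 41, while the target Wisp1 fell from 1890 and 1820 to 97 and 79 (-4.39 ± 0.111). Pygo1 fell from 64 and 62 to 1 and 0 and Daam2 from 35 and 38 to 0 and 1. Trabd2b, which encodes the WNT-cleaving protease Tiki2, rose from 10 and 21 to 217 and 252 (3.92 ± 0.354). Of 16 TCF cofactor genes, 5 rose and 10 fell.

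Some members were called in several of the contrasts. Lef1 rose in both Actb mutant ESC groups and in the Actg1 K.O. MEFs, and fell in the Actg1 locus deletion MEFs and the Kindlin-2 K.O. MKFs. Rnf43 rose in both Actg1 mutant MEF groups and in the Kindlin-2 K.O. MKFs and was not called in either ESC contrast. Myc rose in the 2 ESC contrasts, in the locus deletion MEFs and in the MKFs. Wls fell in the locus deletion ESCs and in the MKFs and rose in the Actg1 K.O. MEFs. Whether these responses differ between cell types was not tested, because the tables were normalised separately.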

How the data were processed

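RNA-seq of 16 libraries (8 groups of 2) was made with a stranded total RNA kit, per the labels' protocols. Per the submitters' processing notes, STAR 2.5.3a, featureCounts 1.6.0 and DESeq2 1.14.1 were used with GRCm38 (mm10); the order and the strand setting are not given in the sources used here. The deposited values are a score, whole-number normalised reads per gene, not raw counts, so a count model was not fitted. Of the 58 members, 12 overlap an exon of another gene, mostly on the opposite strand, and such reads may be shared.

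Per table, log2(value + 1) of genes with a mean of at least 1 was fitted with limma 3.58.1 in R 4.3.3 (group means, trended empirical Bayes, all groups of a table together), with Benjamini-Hochberg adjustment over all genes and a threshold of 0.05. There were 7 comparisons. The script was tested on simulated data. The stem cell library numbers may pair the samples, because their deviations from the group means correlated (0.678, 0.349 and 0.492 over genes with a mean of at least 50). The labels give the numbers only. The main fits did not use this pairing, so ESC counts, standard errors and p-values are unpaired unless a block is named. The replicate block was an alternative fit. Groups at 0 were bounded with 3 reads per library. Counting intervals are exact 95% binomial ones on reads estimated from the worth of 1 read. Positions and exon lengths are from GENCODE M21. The members, roles and gene lists were chosen with earlier results of these data known. Every called member is named, other members by role, and up to 5 other pathway genes a comparison by the size of their change; Ccnd1, Rspo2 and the marker genes were chosen after their values were seen. Alternatives tried were other pseudocounts, filters and scalings, the replicate block, fits of 2 groups and leaving out each library.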

Additional observations from a re-analysis of the deposited data

How the results depend on the processing

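No called member changed direction under any alternative. The number of members called stayed within 1.5 times the main count under pseudocounts of 0.5 and 5, filters at a mean of at least 10 and none, rescaling without genes over 1 percent of a library, rescaling by TMM factors, and the replicate block. With the replicate block, 12, 17 and 14 members were called in ESCs (Actb K.O. and locus deletion against wild type, and K.O. against locus deletion) in place of 8, 15 and 10. Calls over all 23054 genes rose with the block too. In the same order, those higher and lower went from 563 and 563 to 921 and 929, from 1196 and 1384 to 1784 and 1943, and from 590 and 535 to 909 and 826. In MEFs 22, 20 and 25 and in MKFs 25 were called with it. There the correlations were -0.211, -0.302 and 0.214 in MEFs and -0.0952 in MKFs. The labels do not say whether the library numbers pair these samples. A fit of only the 2 groups compared, with fewer samples behind the spread, called 4, 5 and 3 members in the ESC comparisons. Over all genes it called 163 higher and 109 lower, 395 and 481, and 106 and 108. Leaving out 1 library called 0 in each fit of the Actb K.O. against wild type, 0 to 4 for the locus deletion, 0 for K.O. against locus deletion, 14 to 18, 10 to 18 and 16 to 24 in the same MEF comparisons, and 12 to 19 in MKFs. Rescaling without the genes over 1 percent moved the split of all calls from 563 higher and 563 lower to 467 and 786 in the Actb K.O., and from 4455 and 4126 to 5438 and 3710 in the Actg1 K.O., where the median of all genes rose from 0.059 to 0.141. Few reads stand behind low members: Wnt8a in ESCs, with means of 12 reads in the Actb K.O. and 2.5 in wild type, was not called (adjusted p = 0.163).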
